A study of Rattus norvegicus with 15 samples.

Results

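The genes described here encode the non-collagen part of the extracellular matrix and the basement membrane: laminins, nidogens, proteoglycans, elastic fibre proteins, crosslinking enzymes and matricellular proteins. They were chosen by gene symbol from a list of 46, and 45 of them were among the 28914 genes of the count table; Hspg2 (perlecan) was not analysed here. Isolated islets of Langerhans were taken from Lewis rats, 10 weeks after an operation, and their polyadenylated RNA was sequenced, 1 library per sample. In the PX rats 90% of the pancreas had been removed, so the islets came from the small remnant, and the Sham rats were operated on without it. The average pre-sacrifice blood glucose, for which the labels give no unit, was 416 to 464 in 3 PX libraries (higher-glucose PX), 104 to 211 in 7 PX libraries (lower-glucose PX) and 88 to 96 in 5 Sham libraries. All rats carry the same description of 4-5 weeks, which does not say at what point of the study, and the glucose groups were formed from the labels at a boundary of 300. The series text gives 10 and 5 rats, the same numbers as the libraries, but the labels name no animals, so p-values measure the spread between these libraries.

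A basement membrane is a thin sheet of laminin networks, tied together by nidogens and heparan sulphate proteoglycans such as agrin. In islets it lies around the capillaries and in the islet capsule. Between cells, small leucine-rich proteoglycans coat collagen fibrils, fibrillin microfibrils carry elastin and hold latent TGF-beta, and lysyl oxidases crosslink both. Matricellular proteins such as periostin, tenascin C and the CCN proteins Ctgf and Cyr61 add little structure but change how cells attach and signal, and their genes are known to be induced in wound repair and fibrosis.

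Libraries held 22.3 to 33.4 M counts in higher-glucose PX, 19.1 to 31.6 M in lower-glucose PX and 12.2 to 18.4 M in Sham, and totals differed between all PX and Sham (exact two-sided permutation test, p = 0.000666). The islets were not pure. Acinar markers, mostly digestive enzymes, took 19.7% to 47.7% of counts in PX and 1.03% to 14.6% in Sham (exact two-sided permutation test, p = 0.000333), while endocrine markers summed to 50600 to 85900 CPM in PX and 94200 to 198000 CPM in Sham (p = 0.000333, same test). The 14 fibroblast and stellate cell markers summed to 1300 to 2460 CPM in higher-glucose PX, 3410 to 8050 CPM in lower-glucose PX and 187 to 536 CPM in Sham. This sum is mostly matrix itself: its 5 collagen genes made up 67.4% to 80.6% in higher-glucose PX, 78.2% to 89.6% in lower-glucose PX and 55.9% to 74.9% in Sham. Smooth muscle and pericyte markers (10 genes) summed to 500 to 1270 CPM in PX and 184 to 245 CPM in Sham, and endothelial markers (10 genes) to 671 to 1120 CPM in PX and 449 to 688 CPM in Sham. CPM are counts per M counts, on TMM-scaled library totals throughout. In such bulk tissue, a change in the number of cells of a type and a change in RNA per cell cannot be told apart.

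Promoter sequences are shown for 4 matricellular genes whose levels are given below: Ctgf and Cyr61, textbook targets of TEAD factors whose levels overlapped between the PX groups, and Tnc and Postn, which were highest in lower-glucose PX. They come from RefSeq (GRCr8), run from 250 bases before to 50 bases after the gene start, and are written 5′ to 3′ on the gene's strand; capitals mark the motifs GGAATG (TEAD), TGANTCA (AP-1) and CAGACA (SMAD) on either strand. Ctgf lies at chr1:22624565-22624864 on the minus strand, Cyr61 at chr2:237225640-237225939 (minus), Tnc at chr5:82476082-82476381 (minus) and Postn at chr2:140677811-140678110 (plus).
Ctgf: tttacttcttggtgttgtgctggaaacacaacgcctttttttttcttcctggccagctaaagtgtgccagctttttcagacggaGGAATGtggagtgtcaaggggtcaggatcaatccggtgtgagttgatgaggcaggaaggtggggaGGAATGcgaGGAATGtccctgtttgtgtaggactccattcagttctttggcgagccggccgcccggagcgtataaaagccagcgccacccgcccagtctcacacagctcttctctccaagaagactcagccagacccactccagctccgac
Cyr61: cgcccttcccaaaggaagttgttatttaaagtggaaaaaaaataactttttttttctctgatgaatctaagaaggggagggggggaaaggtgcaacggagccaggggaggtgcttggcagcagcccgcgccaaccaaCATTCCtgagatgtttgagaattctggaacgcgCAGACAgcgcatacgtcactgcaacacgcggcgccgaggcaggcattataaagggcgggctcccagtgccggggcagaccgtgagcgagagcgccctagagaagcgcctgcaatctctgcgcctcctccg
Tnc: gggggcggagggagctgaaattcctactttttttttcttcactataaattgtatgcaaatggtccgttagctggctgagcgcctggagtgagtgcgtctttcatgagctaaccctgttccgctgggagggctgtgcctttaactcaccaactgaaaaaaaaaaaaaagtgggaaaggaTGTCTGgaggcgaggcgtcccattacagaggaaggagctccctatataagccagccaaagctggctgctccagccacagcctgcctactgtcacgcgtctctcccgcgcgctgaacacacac
Postn: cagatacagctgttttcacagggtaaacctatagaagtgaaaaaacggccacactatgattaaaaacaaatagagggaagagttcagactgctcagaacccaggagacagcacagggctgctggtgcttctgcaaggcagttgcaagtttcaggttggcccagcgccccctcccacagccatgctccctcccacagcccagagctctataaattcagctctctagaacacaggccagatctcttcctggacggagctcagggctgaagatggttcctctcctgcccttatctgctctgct
Ctgf held GGAATG starting at positions −166, −101 and −92 from the start, Cyr61 its reverse complement at −113 and CAGACA at −80, and Tnc the reverse complement of CAGACA at −72. The Postn window held none of these letters. Promoters were found for 31 of the 45 genes, 29 by symbol and 2 (Ctgf as Ccn2, Cyr61 as Ccn1) by synonym. GGAATG was present in 9 of the 31 (29%), against 13.9% of all 27457 promoters of that length: Lamc1, Nid1, Ogn, Fbln5, Loxl1, Sparc, Thbs1, Ctgf and Cyr61. TGANTCA was in 3.23% of the 31, against 7.33% of all, and CAGACA in 22.6%, against 20.8% of all. These are matches of letters, not known binding sites.

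Between all PX and Sham islets, nearly the whole gene set was higher in PX. Of 45 genes, 43 rose and 0 fell by edgeR's quasi-likelihood test with Benjamini-Hochberg adjustment over all genes tested, where 34.5% of 15199 genes rose and 30.2% fell. The median log2 fold change was 2.18 over the 45 genes and 0.02 over all genes tested. A rise of at least 1 on the log2 scale was called for 39 of them, against 22.3% of all genes tested, and a fall of that size for 0 (4.26% of all). In 35 of 45 genes every PX library lay above every Sham library, against 20.8% of all genes tested, and in 0 every PX library lay below (16.4% of all). The 10 genes whose groups overlapped were Nid2, Ogn, Vcan, Emilin1, Mfap2, Mfap4, Loxl2, Tnc, Postn and Matn2. Emilin1 and Loxl2 did not pass the test, and DESeq2 and limma voom also called 0 of the genes lower.

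**Figure D1:**
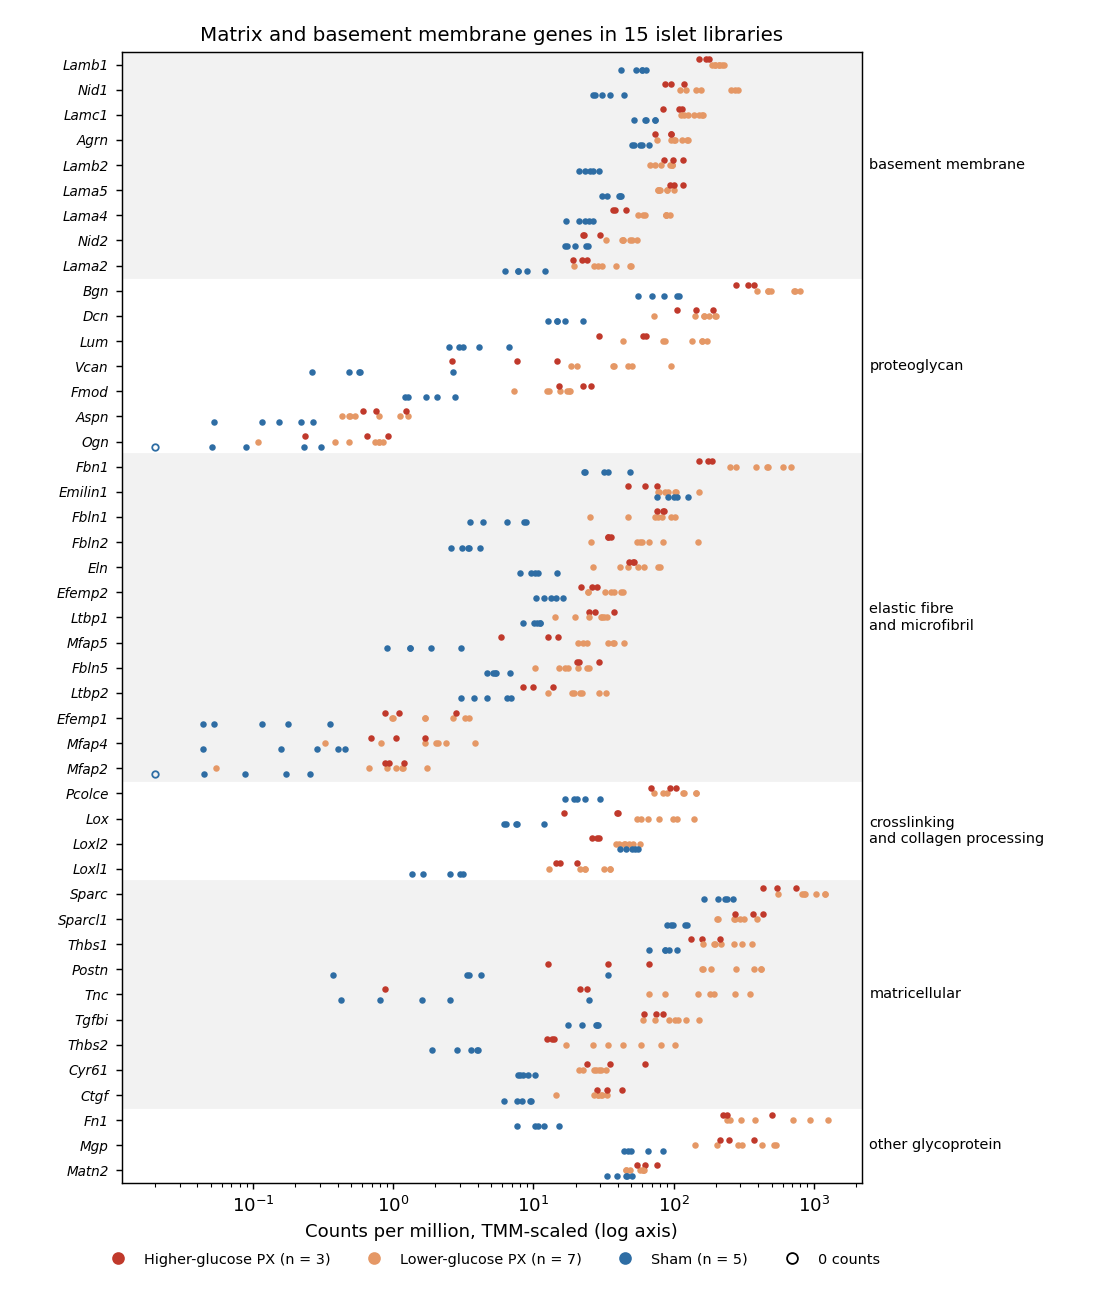
Level of each of the 45 genes (rows, grouped by role) in each library, in CPM on a log axis, with higher-glucose PX (n = 3), lower-glucose PX (n = 7) and Sham (n = 5) offset from top to bottom within a row; open points mark 0 counts. In 35 of the 45 rows every PX point lies to the right of every Sham point, while Emilin1 and Loxl2 overlap.

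**Figure D2:**
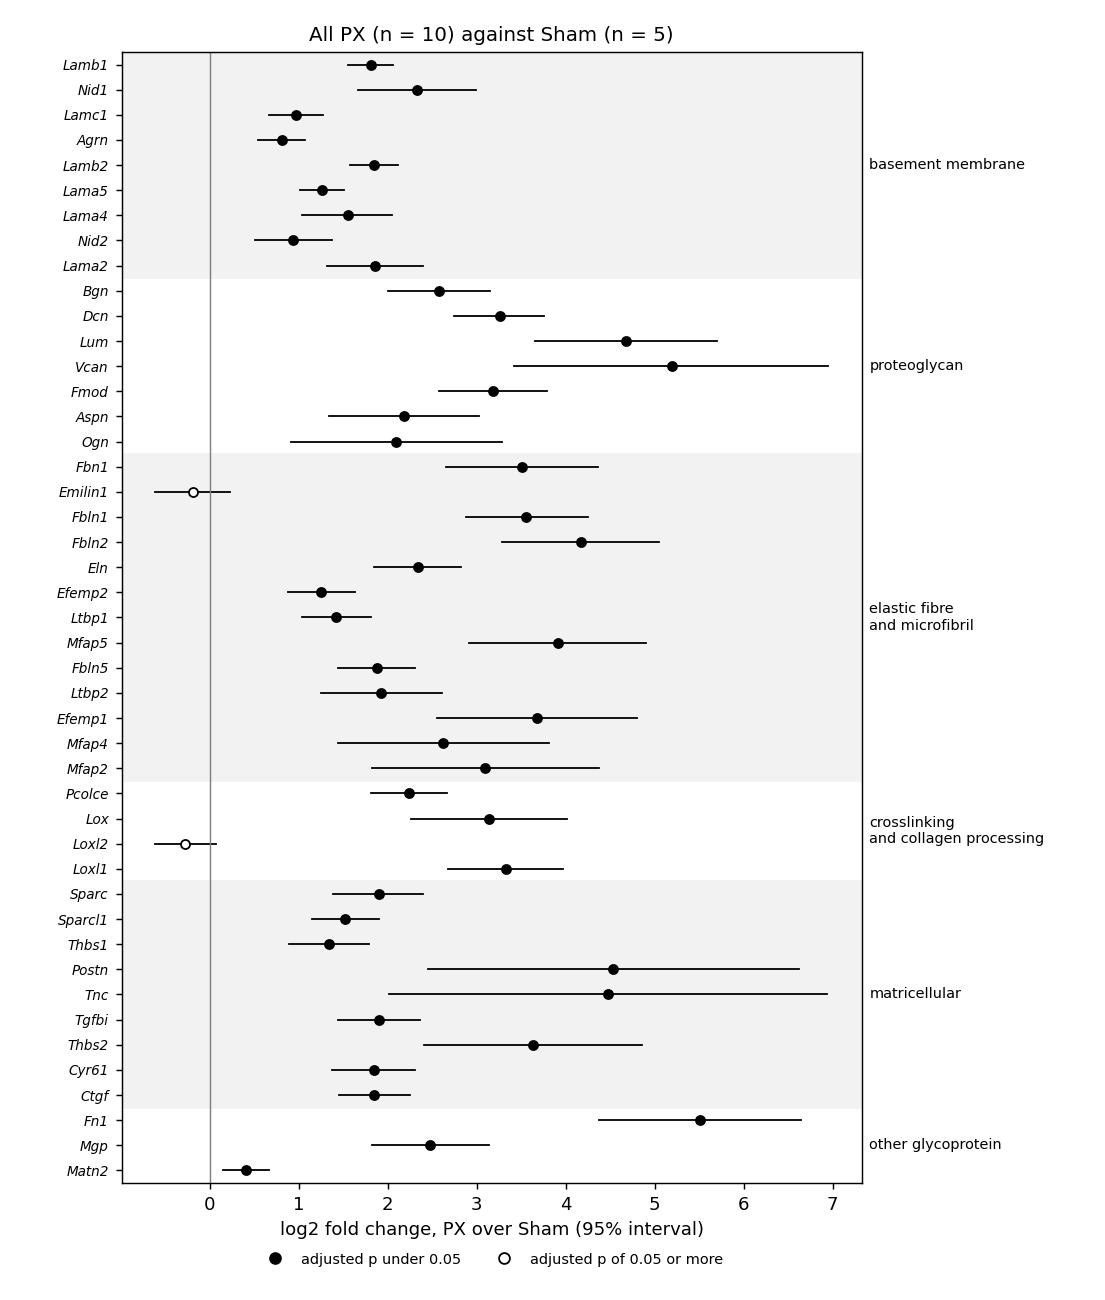
Log2 fold change of all PX (n = 10) over Sham (n = 5) for each gene, with its 95% interval from edgeR's quasi-likelihood fit; filled points have an adjusted p under 0.05. Fn1 (5.51) and Vcan (5.19) lie farthest to the right, and the intervals of Emilin1 and Loxl2 include 0.

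Among basement membrane genes, 9 of 9 rose, with a median log2 fold change of 1.55 and adjusted p of 0.000748 or below. The laminin chains give both vascular and epithelial networks: Lama4 is the alpha chain of vessel walls, Lama5 that of mature endothelium and epithelium, and Lama2 that of muscle and nerve. Lamb1, the beta chain with the highest mean level of the class, had 151, 170 and 178 CPM in higher-glucose PX, 189 to 230 CPM (median 210) in lower-glucose PX, and 42.3, 54.3, 59.4, 59.9 and 63.6 CPM in Sham. It rose 3.50-fold (log2 1.81 ± 0.12, SE), and Lamb2, the beta chain of synapses and mature vessels, rose by log2 1.85 ± 0.13. Nid1, the linker between laminin and collagen IV, changed most in the class: it had 86.2, 96.2 and 119 CPM in higher-glucose PX, 111 to 287 CPM (median 158) in lower-glucose PX, and 26.8, 27.6, 30.9, 35.1 and 44.6 CPM in Sham. All PX libraries stood above all Sham libraries, and Nid1 rose by 2.33 ± 0.31. Agrn, the heparan sulphate proteoglycan agrin, changed least. It had 74.1, 95.7 and 96.4 CPM in higher-glucose PX, 76.4 to 126 CPM (median 102) in lower-glucose PX, and 50.3, 52.1, 57.4, 60.0 and 66.9 CPM in Sham (log2 0.81 ± 0.13). The groups did not overlap for Agrn either. The alpha chains rose by 1.86 ± 0.26 (Lama2), 1.55 ± 0.24 (Lama4) and 1.26 ± 0.11 (Lama5), and Lamc1, the gamma chain most laminins share, by 0.97 ± 0.14.

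The proteoglycans had the highest class median, 3.18; 7 of 7 rose, with an adjusted p of 0.00362 or below. Bgn, biglycan, a small leucine-rich proteoglycan and the most abundant of them, had 278, 338 and 377 CPM in higher-glucose PX, 394 to 795 CPM (median 496) in lower-glucose PX, and 55.6, 70.1, 86.1, 105 and 109 CPM in Sham, a rise of log2 2.58 ± 0.27. Its fibril-binding relatives Dcn (decorin), Lum (lumican) and Fmod (fibromodulin) rose by 3.26 ± 0.24, 4.68 ± 0.48 and 3.18 ± 0.29. Vcan, versican, a large hyaluronan-binding proteoglycan of loose and healing tissue, had 2.62, 7.62 and 14.7 CPM in higher-glucose PX, 18.6 to 95.7 CPM (median 37.5) in lower-glucose PX, and 0.264, 0.481, 0.573, 0.578 and 2.68 CPM in Sham. Its rise was 36.4-fold (log2 5.19 ± 0.83), and 1 higher-glucose PX library lay just below Sham replicate 24; without that Sham library the rise was log2 6.11 (adjusted p = 4.94e-05). Ogn, osteoglycin, was barely detected, with 0.233, 0.653 and 0.919 CPM in higher-glucose PX, 0.109 to 0.849 CPM (median 0.742) in lower-glucose PX, and 0, 0.0505, 0.0889, 0.229 and 0.306 CPM in Sham. The groups overlapped, and the rise of log2 2.09 ± 0.56 was the smallest of the class. Aspn (asporin) stayed at or under 1.28 CPM in every library and rose by 2.18 ± 0.40.

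Of the elastic fibre and microfibril genes, 12 of 13 rose, with a class median of 2.62 and adjusted p of 0.000617 or below for the 12. Fbn1, fibrillin 1, the backbone of microfibrils, had 152, 177 and 187 CPM in higher-glucose PX, 254 to 690 CPM (median 468) in lower-glucose PX, and 22.9, 23.5, 31.9, 34.3 and 48.7 CPM in Sham. It rose 11.4-fold (log2 3.51 ± 0.40), and the 3 groups did not overlap. Fbln2, a fibulin that bridges elastin, fibrillin and basement membrane, rose most in the class. It had 34.1, 34.2 and 36.0 CPM in higher-glucose PX, 25.7 to 149 CPM (median 59.4) in lower-glucose PX, and 2.58, 3.07, 3.42, 3.45 and 4.19 CPM in Sham (18-fold, log2 4.17 ± 0.42). Elastin itself (Eln) rose by 2.34 ± 0.23, less than Fbln1 (3.56 ± 0.32) and the microfibril protein Mfap5 (3.91 ± 0.47), and more than Fbln5 (1.88 ± 0.21), which helps elastin assemble. Ltbp1, which anchors latent TGF-beta, rose by 1.42 ± 0.18, and its relative Ltbp2 by 1.93 ± 0.32. Efemp1 (3.68 ± 0.53) and Mfap2 (3.10 ± 0.60) rose at low levels, with means of 1.95 and 0.973 CPM in PX, against 0.149 and 0.111 CPM in Sham. Efemp2, needed to bring lysyl oxidase to elastin, rose by 1.25 ± 0.18. For Mfap4 (2.62 ± 0.56), 1226 of 1600 exon bases overlap a gene annotated on the other strand, LOC100912585, and the strand setting of the counting is not given, so its value is uncertain.

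Emilin1, a glycoprotein at the surface of elastic fibres, was the exception in the class. It had 47.0, 62.8 and 76.1 CPM in higher-glucose PX, 76.9 to 151 CPM (median 91.9) in lower-glucose PX, and 76.1, 92.0, 101, 105 and 127 CPM in Sham, so the groups overlapped. Its log2 fold change was −0.19 ± 0.20 (adjusted p = 0.415, 95% interval −0.61 to 0.23). Scaled by 8 endocrine granule genes the value was 0.34, and with an acinar covariate 0.19, neither past the threshold. On library totals Emilin1 stayed negative and was called lower.

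Of the 4 crosslinking and collagen processing genes, 3 rose. Pcolce, which speeds the trimming of procollagen and was the most abundant of them, had 68.7, 93.6 and 104 CPM in higher-glucose PX, 72.3 to 145 CPM (median 116) in lower-glucose PX, and 16.8, 19.4, 20.5, 23.2 and 29.9 CPM in Sham (log2 2.24 ± 0.20). Loxl1, a lysyl oxidase of elastic fibres, rose most, with 14.4, 15.4 and 20.3 CPM in higher-glucose PX, 13 to 35.4 CPM (median 23.5) in lower-glucose PX, and 1.37, 1.62, 2.53, 2.98 and 3.15 CPM in Sham (10.1-fold, log2 3.33 ± 0.31). Lox, the founding lysyl oxidase, rose by 3.14 ± 0.42. Loxl2, the family member that crosslinks collagen IV of basement membranes, did not follow them. It had 26.3, 28.4 and 29.3 CPM in higher-glucose PX, 38.7 to 57.7 CPM (median 44.7) in lower-glucose PX, and 41.8, 46.0, 50.1, 52.8 and 56.2 CPM in Sham. Lower-glucose PX and Sham overlapped, and all 3 higher-glucose PX libraries lay below both. Over all PX the log2 fold change was −0.27 ± 0.16 (adjusted p = 0.157, 95% interval −0.61 to 0.07), and 0.22 under endocrine scaling. On library totals Loxl2 stayed negative and was called lower.

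All 9 matricellular genes rose (median 1.90, adjusted p of 0.00286 or below). Sparc, a collagen-binding protein and the most abundant of them, had 437, 551 and 749 CPM in higher-glucose PX, 553 to 1210 CPM (median 873) in lower-glucose PX, and 166, 209, 234, 239 and 265 CPM in Sham (3.72-fold, log2 1.90 ± 0.24). Its relative Sparcl1 rose by 1.52 ± 0.18. Thbs1, thrombospondin 1, an activator of latent TGF-beta, changed least, with 134, 160 and 213 CPM in higher-glucose PX, 161 to 363 CPM (median 218) in lower-glucose PX, and 66.9, 86.7, 87.3, 92.4 and 106 CPM in Sham (log2 1.34 ± 0.21). Thbs2, its non-activating relative, rose by 3.63 ± 0.58, and Tgfbi, a TGF-beta-induced adhesion protein, by 1.90 ± 0.22. Ctgf and Cyr61 rose by nearly the same amount, 1.85 ± 0.19 and 1.85 ± 0.22. Their values, chosen after they were seen, were 28.4, 33.4 and 42.7 CPM in higher-glucose PX, 14.6 to 33.4 CPM (median 29.1) in lower-glucose PX, and 6.18, 7.65, 8.29, 9.51 and 9.64 CPM in Sham for Ctgf. For Cyr61 they were 24.3, 35.0 and 62.4 CPM in higher-glucose PX, 21.3 to 33.2 CPM (median 28) in lower-glucose PX, and 7.77, 8.02, 8.49, 9.09 and 10.2 CPM in Sham. Neither gene overlapped between PX and Sham.

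Postn and Tnc had the widest spread of the matricellular genes. Postn, periostin, which organises collagen in healing tissue, had 12.8, 34.3 and 66.8 CPM in higher-glucose PX, 160 to 421 CPM (median 280) in lower-glucose PX, and 0.370, 3.38, 3.45, 4.22 and 34.2 CPM in Sham. Tnc, tenascin C, an anti-adhesive glycoprotein of injured tissue whose values were also chosen after they were seen, had 0.874, 21.6 and 24.2 CPM in higher-glucose PX, 66.7 to 350 CPM (median 181) in lower-glucose PX, and 0.423, 0.8, 1.6, 2.54 and 24.9 CPM in Sham. For both, the highest Sham value belonged to replicate 24, which lay within the higher-glucose PX values for Postn and above all 3 of them for Tnc. Over all PX, Postn rose by log2 4.53 ± 0.99 and Tnc by 4.48 ± 1.16. Without Sham replicate 24 these values were 6.19 (adjusted p = 6.88e-05) and 6.63 (adjusted p = 0.000306).

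Of the 3 other glycoproteins, Fn1 changed most of all 45 genes. Fn1, fibronectin, the provisional matrix that cells bind through integrins, had 225, 239 and 502 CPM in higher-glucose PX, 240 to 1270 CPM (median 381) in lower-glucose PX, and 7.61, 10.2, 10.8, 11.9 and 15.2 CPM in Sham. The lowest PX library was far above the highest Sham library, and the rise was 45.4-fold (log2 5.51 ± 0.54, adjusted p = 3e-07). Mgp, an inhibitor of calcification made by vascular and other mesenchymal cells, rose by 2.48 ± 0.31. Matn2, matrilin 2, a filament-forming adaptor, rose least of the genes called, with 54.9, 62.2 and 76.3 CPM in higher-glucose PX, 45.5 to 61.3 CPM (median 57.4) in lower-glucose PX, and 33.7, 39.2, 45.8, 46.8 and 50.3 CPM in Sham (log2 0.41 ± 0.12, adjusted p = 0.00721). On library totals without TMM scaling its value turned to −0.22 (adjusted p = 0.334).

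Scaling moved these values together. On library totals the median of all genes was −0.62 and that of the matrix genes 1.58, with 38 matrix genes higher and 2 lower. Over all genes tested, 2667 of 15199 were higher there. In 15 matrix genes instead of 35 every PX library lay above every Sham library. The share of all genes without overlap was not counted on this scaling. The 2 lower genes were Emilin1 and Loxl2, in a setting where 52.3% of all genes tested were called lower. Under endocrine scaling the medians were 0.46 and 2.64, with 43 matrix genes higher, against 7436 of all 15199 genes tested. Genes higher made up 53.3% of all genes called with TMM, 25.1% on totals and 88.2% under endocrine scaling. With the acinar markers as a covariate 40 matrix genes were higher, against 3331 of all 15199 genes tested. Fibroblast and stellate cell markers differed in the same direction, 14 of 14 higher in PX (median 3.35; exact two-sided permutation test of their sum, p = 0.00266), as did 10 of 10 smooth muscle and pericyte, 8 of 10 endothelial and 12 of 12 macrophage markers; their part in the matrix values was not tested. Set against the fibroblast marker sum, the summed CPM of the 45 genes was 158% to 270% in higher-glucose PX, 91.0% to 144% in lower-glucose PX and 271% to 554% in Sham. Against the 9 markers that are not collagens, a choice made after seeing the data, it was 724% to 855% in higher-glucose PX, 571% to 1030% in lower-glucose PX and 1080% to 1290% in Sham.

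The make-up of the set is given here as shares, with no test. Divided by exon length (CPM per kb), Mgp, Sparc and Bgn together made up 52.4% ± 4.38 of the summed level in PX and 47.8% ± 2.46 of it in Sham (SD, n = 10 and n = 5). Mgp took 23% ± 5.2 of the sum in PX and 17.9% ± 2.84 in Sham, and Sparc 19.3% ± 2.34 in PX and 22.6% ± 1.18 in Sham (SD, n = 10 and n = 5). Fn1 ranked 9 of 45 by mean length-scaled level in PX and 32 in Sham, with shares of 3.13% ± 2.19 in PX and 0.276% ± 0.0401 in Sham. The genes that did not rise ranked lower in PX than in Sham, but so did some that rose less than the set. Among these, Nid2 ranked 31 in PX and 17 in Sham, and Agrn 28 in PX and 15 in Sham. Emilin1 ranked 17 in PX and 5 in Sham (shares of 1.15% ± 0.350 and 5.57% ± 1.07), and Loxl2 ranked 21 in PX and 7 in Sham (0.910% ± 0.220 and 4.67% ± 0.659).

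**Figure D3:**
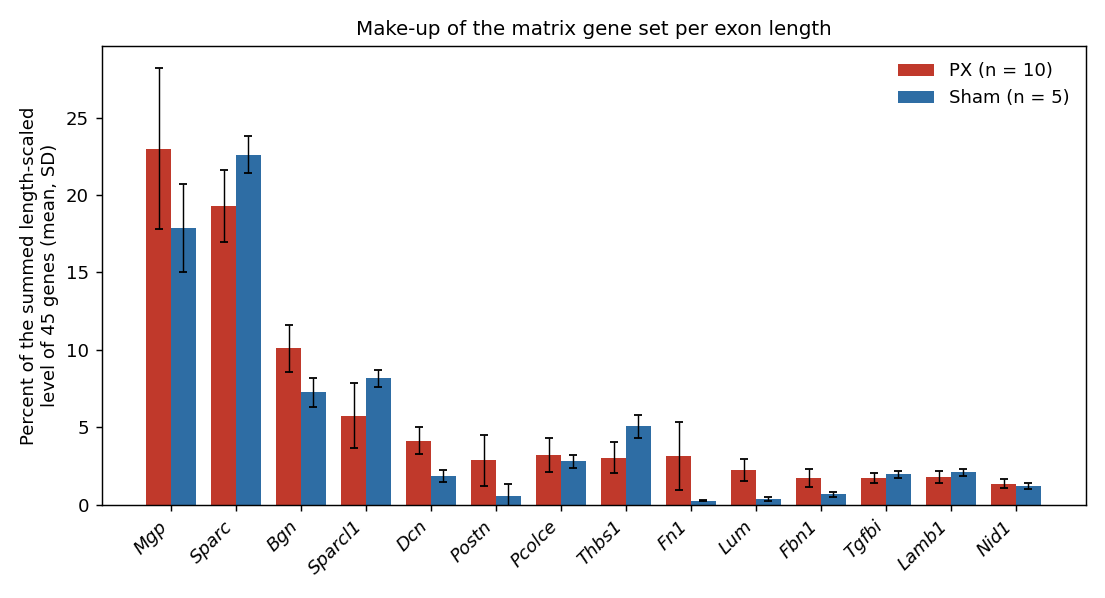
Share of the most abundant genes in the summed length-scaled level (CPM per kb of exon) of the 45 genes, in percent, as mean and SD over PX (n = 10, left bars) and Sham (n = 5, right bars) libraries. Mgp and Sparc lead in both groups, and Fn1 takes 3.13% in PX and 0.276% in Sham.

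Both PX glucose groups were also set against Sham in a fit of 3 groups; these comparisons share the 5 Sham libraries, so their values are given side by side. In higher-glucose PX, 41 genes rose and 2 fell (background 32.2% and 25.5% of 15661 genes), with a median of 2.01, and in lower-glucose PX 43 rose and 0 fell (33.6% and 30% of genes), with a median of 2.17. Changes of at least 1 on the log2 scale numbered 35 higher and 0 lower in higher-glucose PX (22% and 5.64% of genes), and 41 higher and 0 lower in lower-glucose PX (22.3% and 4.71% of genes). On library totals 7 genes turned negative in higher-glucose PX, none past the threshold: Lama4, Lamc1, Nid2, Agrn, Efemp2, Thbs1 and Matn2. Emilin1 had a log2 fold change of −0.70 ± 0.22 (adjusted p = 0.0119) in higher-glucose PX and −0.03 ± 0.17 (adjusted p = 0.906) in lower-glucose PX. Loxl2 had −0.82 ± 0.13 (adjusted p = 6.84e-05) in higher-glucose PX and −0.09 ± 0.10 (adjusted p = 0.439) in lower-glucose PX. Both therefore fell in higher-glucose PX; without higher-glucose replicate 19 (adjusted p = 0.0747) or under endocrine scaling Emilin1 no longer passed, while Loxl2 did. Nid2, the second nidogen, had 0.29 ± 0.16 (adjusted p = 0.134) in higher-glucose PX and 1.15 ± 0.13 (adjusted p = 2.29e-06) in lower-glucose PX. Tnc had 1.37 ± 0.98 (adjusted p = 0.244) in higher-glucose PX and 4.94 ± 0.95 (adjusted p = 0.00027) in lower-glucose PX. Its higher-glucose value became 3.52 (adjusted p = 0.00224) without Sham replicate 24. Over leave-outs that value ran from 0.92 to 3.52, and the call changed in 1 of them. Ctgf rose by 2.07 ± 0.21 in higher-glucose PX and 1.74 ± 0.18 in lower-glucose PX, and Cyr61 by 2.21 ± 0.22 in higher-glucose PX and 1.65 ± 0.19 in lower-glucose PX.

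Compared directly, higher-glucose PX had less of a group of matrix genes than lower-glucose PX. Of the 45 genes, 9 were lower and 0 higher, against 1.59% of 15661 genes lower and 3.29% higher. Of the 9, 6 were lower by at least 1 on the log2 scale (0.664% of genes), and 0 were higher by as much (1.12% of genes). The median log2 difference was −0.47 over the 45 genes and −0.02 over all genes, and 32 of the 45 values were negative, against 52.5% of all genes. In 13 of the 45 every higher-glucose library lay below every lower-glucose one, against 4.46% of all genes tested: Lama4, Lamb1, Nid2, Bgn, Vcan, Fbn1, Emilin1, Mfap5, Lox, Loxl2, Tnc, Thbs2 and Postn. In 0 genes did all higher-glucose libraries lie above (5.39% of all). Unadjusted p was under 0.05 for 25 of the 45, against 22.8% of all genes, and of these Lama5 (0.29 ± 0.11) and Cyr61 (0.56 ± 0.21) were positive, Lama5 not on library totals or under endocrine scaling; DESeq2 and voom also called 0 genes higher.

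**Figure D4:**
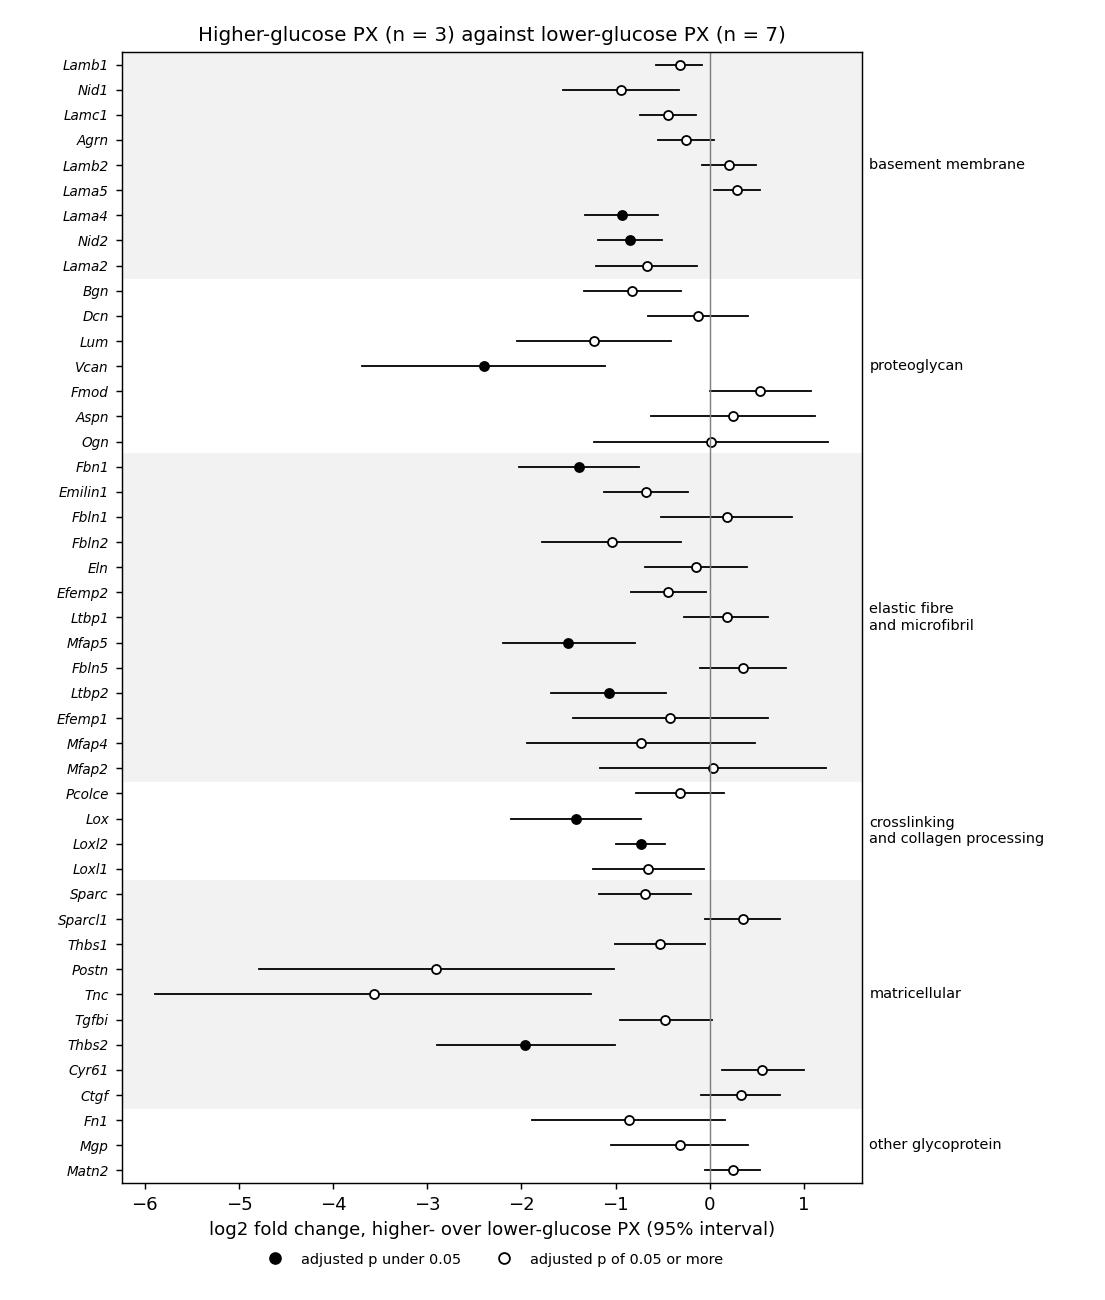
Log2 fold change of higher-glucose PX (n = 3) over lower-glucose PX (n = 7) for each of the 45 genes, with its 95% interval from edgeR's quasi-likelihood fit; filled points have an adjusted p under 0.05. All 9 filled points lie left of 0, from Vcan (−2.40) to Loxl2 (−0.73), and Tnc and Postn lie farther left with open points and wide intervals.

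The 9 genes came from 5 roles. In the basement membrane, Lama4 had 37.1, 38.5 and 45.5 CPM in higher-glucose PX and 56.0 to 94.6 CPM (median 88.3) in lower-glucose PX, and Nid2 had 22.7, 22.9 and 29.8 CPM in higher-glucose PX and 32.8 to 55.2 CPM (median 43.7) in lower-glucose PX. Their differences were −0.93 ± 0.18 (adjusted p = 0.00736) and −0.85 ± 0.16 (adjusted p = 0.00606), while Lamb2, with 0.21 ± 0.14, and Agrn, with −0.25 ± 0.14, did not pass. Among proteoglycans, Vcan fell by 2.40 ± 0.61 (adjusted p = 0.0342), and Dcn, with −0.12 ± 0.25, did not pass. Among microfibril genes, Fbn1 fell by 1.39 ± 0.30 (adjusted p = 0.0148). Mfap5 had 5.88, 12.7 and 14.9 CPM in higher-glucose PX, 20.8 to 44.1 CPM (median 33.9) in lower-glucose PX, and 0.899, 1.31, 1.32, 1.87 and 3.03 CPM in Sham, and its difference between the PX groups was −1.5 ± 0.33 (adjusted p = 0.0162). Ltbp2 had 8.49, 10.0 and 13.7 CPM in higher-glucose PX, 12.7 to 33.0 CPM (median 21.6) in lower-glucose PX, and 3.06, 3.75, 4.65, 6.53 and 6.93 CPM in Sham. It overlapped between the PX groups and was the least secure of the 9 calls (−1.07 ± 0.29, adjusted p = 0.044). Elastin (−0.14 ± 0.26) and Fbln1 (0.18 ± 0.33) did not pass.

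Lox and Loxl2 were both lower in higher-glucose PX. Lox had 16.4, 39.3 and 40.4 CPM in higher-glucose PX, 54.5 to 139 CPM (median 79.2) in lower-glucose PX, and 6.18, 6.34, 7.55, 7.62 and 11.9 CPM in Sham, with a difference of −1.42 ± 0.33 (adjusted p = 0.0199) between the PX groups. Loxl2 differed by −0.73 ± 0.12 (adjusted p = 0.00325), at levels below Sham as given above. Lox thus stood between Sham and lower-glucose PX, and Loxl2 below both. Of the matricellular genes, Thbs2 had 12.5, 13.6 and 14.1 CPM in higher-glucose PX, 17.1 to 102 CPM (median 43.5) in lower-glucose PX, and 1.90, 2.84, 3.6, 3.94 and 4.01 CPM in Sham (−1.96 ± 0.45 between the PX groups, adjusted p = 0.0198). Tnc and Postn had larger differences that did not pass, −3.57 ± 1.09 (adjusted p = 0.0723) and −2.91 ± 0.89 (adjusted p = 0.0724), although neither overlapped between the PX groups. Without Sham replicate 24, whose spread enters this fit of 3 groups, both passed (adjusted p = 0.0148 and 0.00968). Over all leave-outs edgeR's adjusted p ran up to 0.219 for Tnc and 0.251 for Postn. The Tnc call changed in 1 leave-out and the Postn call in 2. Ctgf, at 0.33 ± 0.20 (adjusted p = 0.329), and Cyr61 (adjusted p = 0.119) had positive values, that of Ctgf turning negative on library totals and under endocrine scaling.

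These calls rest on 3 higher-glucose libraries. Without replicate 13, in which Tnc was at 0.874 CPM, 1 of the 9 calls remained (Loxl2). Over all genes the share lower also fell there, from 1.59% in the main test to 0.176%. Without replicate 15, 4 genes were lower (0.559% of all genes) and 1 was higher (289 of 15909 genes). Without replicate 19, 6 were lower (0.593% of all genes). Leaving out lower-glucose replicate 11 gave 13 (1.79% of all genes). DESeq2 called 19 of the 45 lower (4.33% of all genes) and endocrine scaling 26 (28.8% of all genes). Genes higher made up 67.4% of all genes called in the main test, 50.3% with DESeq2, 32.4% on library totals and 3.65% under endocrine scaling. Fibroblast and stellate cell markers moved the same way between the PX groups, with 6 of 14 lower, 0 higher and summed levels that did not overlap (exact two-sided permutation test, p = 0.0167, where 120 splits exist). The 6 were Col1a1, Col1a2, Col3a1, Col6a1, Col6a2 and Pdgfrb (adjusted p = 0.0485 for Pdgfrb), and the 9 markers that are not collagens summed to 413 to 622 CPM in higher-glucose PX and 477 to 1040 CPM in lower-glucose PX (exact two-sided permutation test, p = 0.0417). Smooth muscle and pericyte markers summed to 783 to 1270 CPM in higher-glucose PX and 500 to 963 CPM in lower-glucose PX (exact two-sided permutation test, p = 0.125), acinar markers took 29.1% to 38.3% of counts in higher-glucose PX and 19.7% to 47.7% in lower-glucose PX (p = 0.575), and endothelial markers summed to 830 to 1120 CPM in higher-glucose PX and 671 to 866 CPM in lower-glucose PX (p = 0.05). The part of these markers in the matrix differences was not tested.

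**Figure D5:**
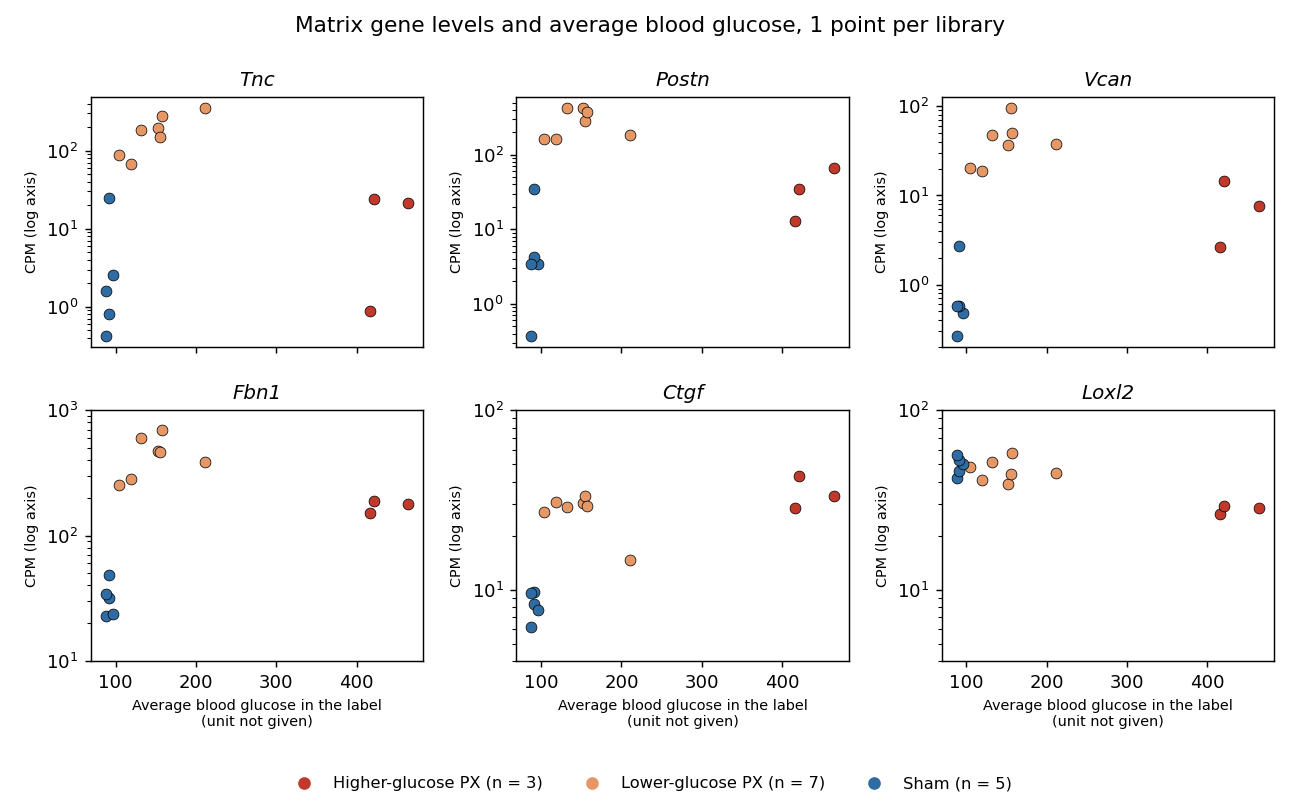
Level of 6 matrix genes (CPM, log axis) against the average blood glucose in the label (unit not given), 1 point per library: higher-glucose PX (n = 3), lower-glucose PX (n = 7) and Sham (n = 5). Tnc, Postn, Vcan and Fbn1 are highest in the lower-glucose PX libraries, Ctgf overlaps between higher-glucose PX (28.4 to 42.7 CPM) and lower-glucose PX (14.6 to 33.4 CPM), and Loxl2 is lowest in the 3 higher-glucose libraries.

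Within the 7 lower-glucose libraries, edgeR detected no change of any matrix gene with glucose. The slope on log2 glucose was called for 0 of the 45 genes and 0% of 15695 genes in either direction by edgeR. At an unadjusted p under 0.05 there were 4 of the 45 and 1429 genes in all, with a median slope of −0.02 over the 45. Without replicate 11 there were 15 of the 45 and 2021 genes, with a median of 0.88, and without replicate 14 there were 8 of the 45 and 1071 genes, with a median of −0.64; edgeR called 0 genes in both. In the fit of all 7 libraries the 4 were Tnc (2.23 ± 0.47 per unit of log2 glucose, adjusted p = 0.396), Pcolce (1.02 ± 0.28, adjusted p = 0.403), Thbs1 (0.97 ± 0.36, adjusted p = 0.495) and Fmod (−1.08 ± 0.40, adjusted p = 0.491). DESeq2 called 1 of the 45 higher and 0 lower (72 and 29 genes in all), and limma voom 0. The plot of levels against glucose shows that Tnc lay at 66.7 to 350 CPM in this range and far lower in all 3 libraries with a glucose of 416 or more.

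PX libraries also differed among themselves across the set. Lower-glucose replicate 2 was the highest PX library for 16 of the 45 genes, lower-glucose replicate 11 the lowest for 16, and higher-glucose replicates 13 and 15 the lowest for 13 and 9. Among Sham libraries, replicate 23 was the lowest for 31 genes, and replicates 24 and 26 were the highest for 22 and 18.

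Other matrix genes, none of them in the set, and matrix receptors were read from the same fits. Of 53 other matrix glycoproteins 43 were tested, and 38 rose and 1 fell in PX relative to Sham (median 1.87). Over all 15199 genes tested, 34.5% rose and 30.2% fell. Papln, papilin, rose by 3.21 ± 0.26 and Cilp, a cartilage and heart matrix protein, by 3.34 ± 0.28, whereas Fras1, an epithelial basement membrane protein, fell by 1.5 ± 0.16. The other proteoglycans were split: 7 of 19 were tested, of which 3 rose, among them Prelp (1.78 ± 0.19) and Prg4 (2.86 ± 0.67), and 4 fell, among them Spock1 (−1.04 ± 0.13) and Hapln4 (−0.89 ± 0.15). Of 29 receptors 28 were tested; 23 rose and 2 fell (median 1.52). The laminin-binding integrin subunits Itga6 and Itgb4 rose by 1.47 ± 0.08 and 3.23 ± 0.26, and the collagen receptor Ddr1 and the syndecan Sdc2 fell by 0.62 ± 0.12 and 0.37 ± 0.09. Adjusted p was 0.00232 or below for each gene named.

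Between the PX glucose groups, these lists moved in both directions. Of 46 other glycoproteins tested 5 were higher and 3 lower in higher-glucose PX. Over all 15661 genes, 3.29% were higher and 1.59% lower. The higher ones included Nov, a CCN protein (1.70 ± 0.17, adjusted p = 3.52e-05), and Elfn1 (3.39 ± 0.42). Elfn1 encodes a transmembrane protein, and its means were low, 6.32 CPM in higher-glucose PX and 0.611 CPM in lower-glucose PX. The lower ones included Cthrc1, an injury-induced secreted protein (−2.05 ± 0.43), and Wisp1, another CCN protein (−1.5 ± 0.41, adjusted p = 0.0456). Of 28 receptors 2 were higher, Itgb8, an integrin subunit that activates TGF-beta (2.24 ± 0.22), and Bcam, a laminin receptor (0.71 ± 0.18), and 3 were lower, among them the collagen-uptake receptor Mrc2 (−1.09 ± 0.24) and the integrin subunit Itgb3 (−1.26 ± 0.28). Of 11 other proteoglycans tested 1 was called, Bcan, at 2.21 ± 0.41. The difference between these lists and the set was not tested.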

How the data were processed

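The deposited file used is a table of raw counts per gene; per the labels, the kits were miRNeasy for RNA and a directional one for the libraries. Per the submitters' processing notes, Subread, featureCounts, FastQC and limma were run, of unstated versions. The build and annotation of the genome, and whether counting used strand, were not given in the sources used here. A table of the authors' own comparison was not used.

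From these counts, genes were kept by filterByExpr (minimum count 10, minimum total count 15), scaled by TMM and tested with edgeR 4.0.16 (glmQLFit and glmQLFTest, two-sided) (R 4.3.3) at a Benjamini-Hochberg adjusted p under 0.05 over all genes tested. PX and Sham as 2 groups gave the comparison of all PX, 3 groups gave those by glucose, and the lower-glucose libraries alone gave the slope. All 45 genes passed the filter in each fit. The SE is the absolute log2 fold change over the square root of the F statistic, with 95% intervals from the t distribution. Sums of markers were compared by exact permutation tests, with 3003 splits for PX against Sham and 120 between PX groups. The pair of libraries of 1 group most alike differed by a chi-square of 30.1 per degree of freedom, so each was counted.

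The genes and lists were chosen with earlier results of these data known. Values per library were given for the genes of highest mean level and of largest and smallest change in each role, for those not called in PX against Sham, and for those called between PX groups; of other lists, up to 2 genes higher and 2 lower by smallest p. The marker lists cover fibroblast and stellate, smooth muscle and pericyte, endothelial, macrophage, acinar, duct, endocrine, Schwann, mesothelial and adipocyte cells. Alternatives were other scalings and filters, DESeq2 1.42.0, voom of limma 3.58.1, a log2 fold change of at least 1, an acinar covariate, the fit of 3 groups for all PX, and leaving out each library. The fits were tested on simulated counts with fewer changed genes than were called here and the same spread for every gene. That test therefore does not bear on the choice of scaling or on genes of wide spread. Intervals cover the spread between libraries, whose totals ran from 12.2 to 33.4 M.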

Additional observations from a re-analysis of the deposited data

Results flagged for a closer look

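A library far from the others of its group was found for 6 of the 45 genes, in 7 of 90 groups of 5 or 7 libraries; chance alone gives about 1 in 20. Sham replicate 24 stood above the other Sham libraries for Vcan (2.68 CPM, others 0.264 to 0.578), Lox (11.9 CPM, others 6.18 to 7.62), Tnc (24.9 CPM, others 0.423 to 2.54) and Postn (34.2 CPM, others 0.37 to 4.22). Lower-glucose PX replicate 8 stood above its group for Vcan (95.7 CPM, others 18.6 to 50.4) and Emilin1 (151 CPM, others 76.9 to 104). Lower-glucose PX replicate 11, at the group's highest glucose of 211, stood below its group for Ctgf (14.6 CPM, others 26.9 to 33.4).

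Levels differed between higher- and lower-glucose PX for 9 genes by edgeR's quasi-likelihood test, all of them lower in higher-glucose PX. Of all 15661 genes tested 1.59% were lower and 3.29% higher. The log2 values of higher- over lower-glucose PX were Lama4 (−0.93), Nid2 (−0.85), Vcan (−2.4), Fbn1 (−1.39), Mfap5 (−1.5), Ltbp2 (−1.07), Lox (−1.42), Loxl2 (−0.73) and Thbs2 (−1.96). The calls rest on 3 higher-glucose libraries, and only Loxl2 kept its call without replicate 13.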

How the results depend on the processing

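No paired analysis was possible because the groups share no replicate numbers. For all PX against Sham, 43 genes were higher under edgeR with TMM and 38 to 43 under the other settings and leave-outs tried (39 with a log2 fold change of at least 1; voom 42). Genes lower numbered 0, but 2 on library totals (Emilin1 and Loxl2) and 1 in the fit of 3 groups. Of all genes 52.3% and 30.6% were lower in these settings. Genes without overlap numbered 15 above and 1 below on library totals, where the share over all genes was not counted. For higher-glucose PX against Sham, library totals gave 24 higher, where 1865 of all 15661 genes were higher. Genes lower (2) became 1 under endocrine scaling (14.5% of all genes) and 0 with a log2 fold change of at least 1 (5.64% of all genes). They ranged from 1 to 2 over leave-outs. For lower-glucose PX, library totals gave 1 lower (45.6% of all genes). Between the PX groups, genes lower (9) became 26 under endocrine scaling (28.8% of all genes) and 19 with DESeq2 (4.33% of all genes). They ranged from 1 to 13 over leave-outs, and genes higher from 0 to 1. The share of all genes called lower ranged from 0.176% to 2.23% over these leave-outs. The slope gave 1 higher with DESeq2. Among the single genes recomputed (all 45 for all PX against Sham, 11 between the PX groups, 4 for each PX group against Sham), signs turned for Emilin1 (all PX 0.34 under endocrine scaling and 0.19 with the acinar covariate; lower-glucose PX 0.59 under endocrine scaling, leave-outs −0.15 to 0.08), Loxl2 (endocrine scaling, all PX 0.22 and lower-glucose PX 0.48), Matn2 (all PX −0.22 on totals) and Nid2 (higher-glucose PX −0.68 on totals). Over all 45 genes, library totals turned 7 in higher-glucose PX against Sham, 1 in lower-glucose PX against Sham and 11 between the PX groups, as did endocrine scaling for the same 11, none of them past the threshold; Emilin1 and Loxl2, turned in lower-glucose PX under endocrine scaling, did pass it. Ltbp2 lost its call between the PX groups in 9 of 15 leave-outs, Vcan in 4. Of the values for the single genes recomputed, 1432 kept direction and side of the threshold, 35 lost the call, 14 gained one and 11 changed sign. On library totals the median of all genes moved to −0.96 in higher-glucose PX and −0.48 in lower-glucose PX against Sham, and to −0.53 between the PX groups; under endocrine scaling to 0.58 in lower-glucose PX and −0.45 between the PX groups. The cause of these shifts was not tested. Ogn and Mfap2 had 0 counts in Sham replicate 23, and Aspn, Efemp1 and Mfap4 had 9 counts or fewer in every Sham library. Vcan had 53 counts in Sham replicate 24 and 5, 10, 11 and 13 in the other Sham libraries. The fold changes of these genes against Sham rest on few counts, as does the value of Vcan without Sham replicate 24.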

Other observations

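In the mesothelial and Schwann cell lists, markers moved in both directions. Of 3 mesothelial markers tested, Upk3b and Wt1 were higher in PX (log2 2.88 ± 0.47 and 5.21 ± 0.71), while Msln was lower (−0.95 ± 0.12, edgeR quasi-likelihood) and made up nearly all of the sum of 662 to 991 CPM in PX and 1370 to 1790 CPM in Sham. Of 5 Schwann cell markers tested, S100b (2.26 ± 0.30), Sox10 (1.71 ± 0.41) and Ngfr (1.41 ± 0.21) were higher in PX and Mbp, the most abundant, was lower (−0.34 ± 0.15, edgeR adjusted p = 0.0466); their sum was 27.3 to 37.1 CPM in PX and 26.6 to 32 CPM in Sham. Duct markers summed to 401 to 584 CPM in PX and 195 to 274 CPM in Sham (exact two-sided permutation test, p = 0.000333), with 7 of 9 higher. The duct sum was 401 to 472 CPM in higher-glucose PX and 485 to 584 CPM in lower-glucose PX, but edgeR called 0 of the 9 between these groups (2 at an unadjusted p under 0.05). Spp1 had means of 73.3 CPM in higher-glucose PX and 202 CPM in lower-glucose PX, and Krt7 (94.7 and 84.1 CPM) and Muc1 (73.2 and 47.5 CPM) had higher means in higher-glucose PX. Adipocyte markers stayed at or below 4.6 CPM in PX and 0.401 CPM in Sham. Macrophage markers summed to 724 to 3840 CPM in PX and 30.8 to 69.1 CPM in Sham (exact permutation test, p = 0.00766). Across the 45 genes together the share of all counts was 0.19% to 0.373% in higher-glucose PX, 0.296% to 0.839% in lower-glucose PX and 0.149% to 0.22% in Sham.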
